A study of Mus musculus with 6 samples.

Results

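The MHC class I and interferon-gamma response genes were taken by symbol from a given list of 32 mouse genes, and all 32 were found among the 54532 genes of the deposited expression table. They comprised 9 class I chains, 7 genes of peptide loading, 5 genes of the immunoproteasome and its activator, 8 interferon-inducible GTPases and 3 regulators. They were measured in whole melanomas grown in C57Bl/6 mice from a cell line labelled BRAFV600EPTEN-/-, with 3 tumors of cells carrying a non-targeted control (NTC) and 3 of cells carrying an active Gli2 (Gli2CA). Both were grown in puromycin, each implant held 1000000 cells in 100 uL, and tumors were taken at day 28. Throughout, 3 values of a group are those of replicates 1, 2 and 3 in that order. The labels give no age or sex of the mice and do not say that each tumor came from a separate mouse or that the cells of a group were more than 1 clone, so the p-values describe only how these samples spread, and part of that spread may be technical.

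MHC class I molecules are trimers of a heavy chain, beta-2 microglobulin and a short peptide, and they show pieces of a cell's proteins to CD8 T cells. Interferon-gamma, made mainly by T and NK cells, acts through JAK kinases and then through IRF1 and NLRC5 to raise transcription of the heavy chains, the peptide transporter TAP, the immunoproteasome and a set of cell-autonomous defence GTPases. In melanoma this program governs how visible tumor cells are to T cells, and its loss is a known route of immune escape.

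Of the 6 libraries, between 16225486 and 22274096 fragments per sample stood behind the values, as computed back from the FPKM steps (fragments per kilobase, scaled to library depth). No member had fewer than 604 fragments in any library. The NTC tumors had 8.88, 11.1 and 7.96 FPKM of Gli2, the gene named by the labels, and the Gli2CA tumors 3.22, 5.82 and 1.61 (log2 fold change -1.40, SE 0.38, adjusted p = 0.0853). This goes against the label (how construct reads were counted: not given in the sources used here), so each direction is that of the tumors labelled Gli2CA. Of 7 melanocytic markers, Sox10 stood at 51.5 to 177 FPKM and Mitf at 6.08 to 10.4 FPKM over the 6 tumors, Tyrp1 was listed at 0 in every tumor, and Tyr, Dct and Mlana reached at most 0.504 FPKM. Whole tumors hold host cells beside melanoma cells, so fewer cells of a type and less RNA per cell cannot be told apart.

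Promoter sequences of 5 members are shown because interferon-gamma acts through such sequences: Tap1 for the window it shares with Psmb9, and Psmb8, B2m, Irgm1 and Igtp for windows that hold a motif. Tap1 and Psmb9 lie head to head on chromosome 17, and their windows, each from 250 bases before to 50 bases after the RefSeq start, overlap by 275 of 300 bases. Capitals mark matches to TTCNNNGAA, the core of the interferon-gamma activated site known as GAS, or to GAAA, any 2 bases and GAAA, the core of the interferon-stimulated response element known as ISRE, searched on both strands, where matches of either motif may overlap. Sequences are RefSeq's on GRCm38.p6, 5′ to 3′ on the strand of the gene.
Tap1, chr17:34187306-34187605, plus strand: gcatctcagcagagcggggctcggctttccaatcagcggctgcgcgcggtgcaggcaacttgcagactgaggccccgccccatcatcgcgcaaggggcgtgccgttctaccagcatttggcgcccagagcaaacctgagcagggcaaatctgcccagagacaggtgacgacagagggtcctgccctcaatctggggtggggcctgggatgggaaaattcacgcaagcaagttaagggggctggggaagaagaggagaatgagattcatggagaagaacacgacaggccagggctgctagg
Psmb8, chr17:34197945-34198244, plus strand: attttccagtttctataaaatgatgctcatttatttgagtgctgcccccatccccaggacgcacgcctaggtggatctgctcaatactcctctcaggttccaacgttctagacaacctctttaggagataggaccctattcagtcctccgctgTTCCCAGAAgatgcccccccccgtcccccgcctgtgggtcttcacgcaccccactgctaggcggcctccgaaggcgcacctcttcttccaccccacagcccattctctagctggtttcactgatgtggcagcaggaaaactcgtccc
B2m, chr2:122147437-122147736, plus strand: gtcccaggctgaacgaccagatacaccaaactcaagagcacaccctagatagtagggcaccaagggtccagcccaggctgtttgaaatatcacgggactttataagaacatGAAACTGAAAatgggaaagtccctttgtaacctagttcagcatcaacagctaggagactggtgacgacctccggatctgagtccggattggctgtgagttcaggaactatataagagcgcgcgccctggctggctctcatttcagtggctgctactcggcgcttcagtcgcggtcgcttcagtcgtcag
Irgm1, chr11:48871371-48871670, minus strand: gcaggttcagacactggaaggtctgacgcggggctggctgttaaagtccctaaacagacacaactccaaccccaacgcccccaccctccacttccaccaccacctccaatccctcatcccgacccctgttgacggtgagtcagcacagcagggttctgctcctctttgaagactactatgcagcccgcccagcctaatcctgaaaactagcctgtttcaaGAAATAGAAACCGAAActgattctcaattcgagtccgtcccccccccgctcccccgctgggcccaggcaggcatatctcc
Igtp, chr11:58199306-58199605, plus strand: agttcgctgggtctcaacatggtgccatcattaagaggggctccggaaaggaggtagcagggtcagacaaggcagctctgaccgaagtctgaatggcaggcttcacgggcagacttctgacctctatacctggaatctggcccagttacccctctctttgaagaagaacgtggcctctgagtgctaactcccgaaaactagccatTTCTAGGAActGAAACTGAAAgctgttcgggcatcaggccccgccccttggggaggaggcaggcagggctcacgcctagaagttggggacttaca

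A promoter was found for 28 of the 32 members. The ISRE core was present for 12 of the 28 members, or 42.9%, and in 3.44% of all 32851 promoters of the same length. The GAS core was present for 6 of the 28 members, or 21.4%, and in 8.3% of all promoters. Some members have more than 1 promoter. Counted by promoter, as the shares over all promoters are, 12 of 32 member promoters held the ISRE core and 6 of 32 the GAS core. Irgm1 held 2 overlapping ISRE matches, Igtp held 1 ISRE and 1 GAS match, B2m held 1 ISRE match and Psmb8 held 1 GAS match. The window shared by Tap1 and Psmb9 held neither set of letters. A match is a description of the letters, not a binding site. The search took exact letters only, so a window without a match can still hold a variant of either element.

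Across the list, most class I chains, the TAP transporter, tapasin and the GTPases Irgm1, Igtp, Gbp2, Gbp3 and Gbp5 stood lower in the tumors labelled Gli2CA. The immunoproteasome genes, Psmb10 aside, overlapped between the groups in the FPKM as deposited. With limma and Benjamini-Hochberg adjustment over 15820 tested genes, 0 of the 32 members passed an adjusted p of 0.05, where 0.348% of all tested genes did, 0.0822% lower. At an adjusted p under 0.1, 7 members were lower, H2-Q4, H2-Q6, Tap2, Tapbp, Gbp5, Irgm1 and Igtp, against 6.13% of all tested genes. Limma-voom on the recovered fragments also gave 0 members, where 0.67% of genes passed. Sample weights and rescaled protein-coding genes each gave 6, H2-Q4, H2-Q6, Tap2, Tapbp, Irgm1 and Igtp. Over the 15820 genes, sample weights called 1588, against 55 in the main fit. The rescaled fit called 736 genes over protein-coding genes alone, whose number tested is not given here. The median log2 fold change over the genes of the rescaled fit was -0.29, beside -0.04 in the main fit, which covers a wider set of genes. At an unadjusted p under 0.05, 12 of the 32 members were lower, against 14.7% of all tested genes, and 0 were higher, against 12.8%. All 3 Gli2CA tumors lay below all 3 NTC tumors for 19 members, against 17.9% of tested genes, and above them for 0 members, against 15.9%. With median-ratio scaling the count of 19 became 12. The 10 genes H2-K1, H2-Q4, H2-Q6, Tap1, Tap2, Tapbp, Erap1, Gbp3, Irgm1 and Igtp were lower without overlap under each of 5 scalings. These were the FPKM as deposited, median-ratio, quantile, protein-coding genes rescaled and a gene length trend removed. The share of all tested genes without overlap was computed for the FPKM as deposited alone, so the counts of 12 and 10 have no share to be read against. Over the list, the median log2 fold change of the 32 members was -0.38, beside -0.04 over all tested genes. Of the 32 genes, 24 had their highest value in NTC replicate 3, and without that tumor 7 members were lower at an unadjusted p under 0.05. No share of all tested genes is given for that fit, so this count has none to be read against.

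**Figure D1:**
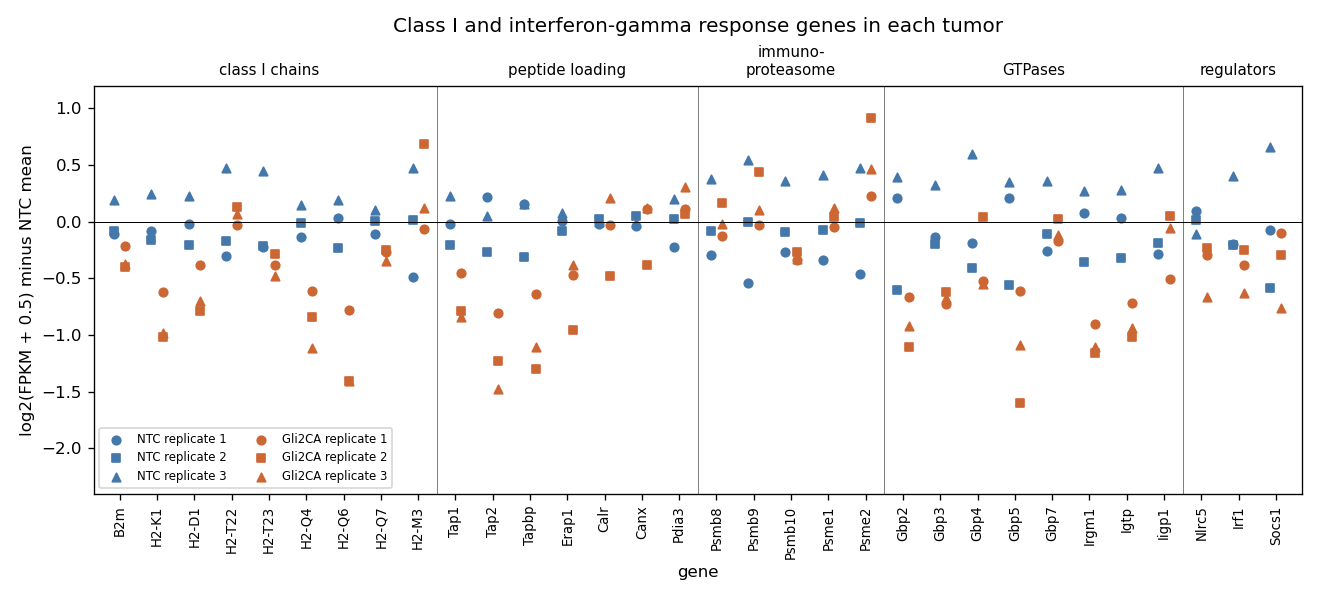
Each point is 1 tumor, as log2(FPKM + 0.5) minus the mean of the 3 NTC tumors, for the 32 genes in their groups; color gives the group and shape the replicate. The Gli2CA points lie below all NTC points for 19 genes, Tap2, H2-Q6 and Irgm1 among them, while immunoproteasome points mix, Psmb10 aside.

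**Figure D2:**
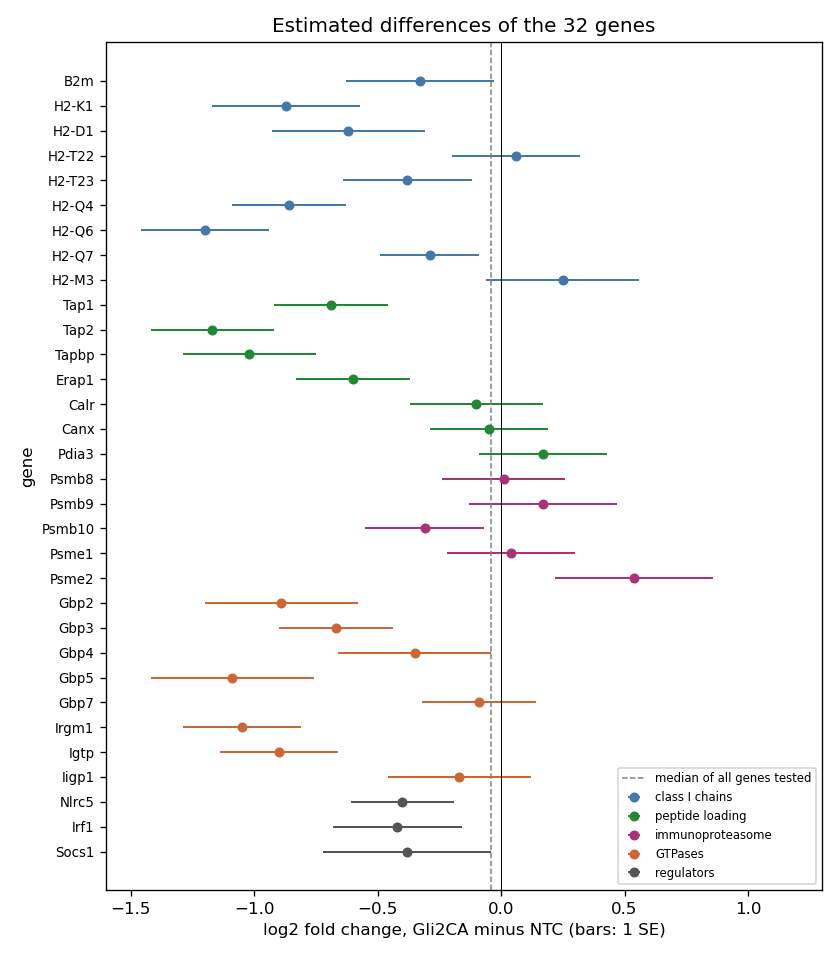
Points are log2 fold changes of Gli2CA against NTC from limma with bars of 1 SE (n = 3 tumors per group), colored by gene group, and the dashed line is the median of all tested genes at -0.04. Estimates run from -1.20 for H2-Q6 to 0.54 for Psme2, and 0 of the 32 genes passed an adjusted p of 0.05.

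B2m, H2-K1 and H2-D1 had the highest FPKM of the 32 members. H2-K1 and H2-D1 encode the classical heavy chains of this mouse strain. H2-K1 (ENSMUSG00000061232, on the minus strand of chromosome 17 from 33996017 to 34000347 in GENCODE M21, build GRCm38) had 3347, 3169 and 4196 FPKM (NTC) and 2308, 1756 and 1792 FPKM (Gli2CA). Every Gli2CA tumor was below every NTC tumor, and the mean of 1952 ± 309 FPKM was 0.55 of the NTC mean of 3571 ± 549 FPKM (SD, n = 3 each). The log2 fold change of H2-K1 came to -0.87 (SE 0.30, adjusted p = 0.115). H2-D1 stood at 4309, 3784 and 5095 FPKM (NTC) against 3354, 2528 and 2682 FPKM (Gli2CA). The groups did not overlap (log2 fold change -0.62, SE 0.31, adjusted p = 0.22).

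B2m, the light chain that every class I heavy chain needs, had an estimate nearer 0. It stood at 4309, 4371 and 5301 FPKM (NTC) against 3988, 3522 and 3572 FPKM (Gli2CA) (log2 fold change -0.33, SE 0.30, adjusted p = 0.494). Its groups did not overlap either. The ratio of H2-K1 to B2m, picked out after its values were seen and not tested, was 0.777, 0.725 and 0.792 in NTC and 0.579, 0.498 and 0.502 in Gli2CA. The ratio of H2-D1 to B2m, not tested either, was 1, 0.866 and 0.961 in NTC and 0.841, 0.718 and 0.751 in Gli2CA. Its groups were apart by a small gap, from 0.866 to 0.841. A ratio within a tumor does not depend on scaling between libraries. With the gene length trend removed, the log2 fold changes were -1.04 for H2-K1 and -0.62 for B2m.

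Among the class Ib heavy chains, which are less polymorphic, the members went different ways. H2-Q6, of the Qa-2 region, had the lowest estimate of the 32 genes at 267, 222 and 298 FPKM (NTC) against 152, 98.3 and 97.8 FPKM (Gli2CA) (log2 fold change -1.20, SE 0.26, adjusted p = 0.0658). H2-Q4, of the same gene cluster, stood at 274, 299 and 335 FPKM against 197, 168 and 139 FPKM (log2 fold change -0.86, SE 0.23, adjusted p = 0.0842). For both genes the groups were apart. H2-Q7, which encodes the Qa-2 antigen, had a log2 fold change of -0.29 (SE 0.20). H2-T23, which encodes Qa-1, the ligand of the NKG2A receptor, stood at 371, 373 and 590.4 FPKM against 333, 356 and 312 FPKM, a gap between groups that is narrow beside the spread within NTC. H2-T22, a ligand of some gamma-delta T cells, and H2-M3, which presents formylated peptides, had overlapping groups, at 203, 223 and 349.5 against 246, 275 and 264 FPKM and at 45.3, 64.3 and 88.8 against 61, 103 and 69.3 FPKM, with log2 fold changes of 0.06 (SE 0.26) and 0.25 (SE 0.31), and H2-T22 was at -0.13 with quantile scaling and -0.14 with protein-coding genes rescaled. H2-M3 was at 0.00 without NTC replicate 1 and 0.03 without Gli2CA replicate 2.

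Heavy chain genes are close copies, which limits how far their values can be told apart. Of the different 50-base windows in the annotated transcripts of H2-Q6, 32% occur letter for letter in transcripts of another gene, 13.9% in H2-Q7 and 12.3% in H2-Q4. The share was 34.5% for H2-T22, mostly with H2-T10, 26.4% for H2-Q7, 21.8% for H2-Q4, 12.8% for H2-D1 and 9.63% for H2-K1, and 0 for B2m. The handling of reads that match several genes was not given in the sources used here. Over the 32 members, 20 shared under 5% of their windows.

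The 9 class I chains summed to 13285, 12678 and 16439 FPKM in the NTC tumors and to 10782, 8951 and 9063 in the Gli2CA tumors, so the sum did not overlap either. Most of this sum is B2m, H2-K1 and H2-D1, so it says little of the class Ib chains. With quantile scaling B2m and H2-D1 were not lower in every Gli2CA tumor.

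Peptide loading divided into TAP, tapasin and Erap1, which were lower in every Gli2CA tumor, and the general chaperones, which overlapped between the groups in the FPKM as deposited. Tap1 and Tap2 encode the subunits of the peptide transporter of the endoplasmic reticulum. Tap2 (chromosome 17, 34203527 to 34216321, plus strand) stood at 114, 80.9 and 101 FPKM (NTC) against 55.7, 41.5 and 34.8 FPKM (Gli2CA) (log2 fold change -1.17, SE 0.25, adjusted p = 0.0658). The Gli2CA mean of 44.0 ± 10.7 FPKM was 0.45 of the NTC mean of 98.6 ± 16.6 FPKM (SD, n = 3 each). Tap1 stood at 174, 153 and 206 FPKM against 129, 102 and 98.5 FPKM (log2 fold change -0.69, SE 0.23, adjusted p = 0.108).

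Tapbp, which encodes tapasin, the bridge between TAP and the empty heavy chain, stood at 539.5, 388 and 537 FPKM against 309.6, 196 and 224 FPKM (log2 fold change -1.02, SE 0.27, adjusted p = 0.0825). Erap1, the aminopeptidase that trims peptides for class I, stood at 81.3, 76.5 and 85.5 FPKM against 58.4, 41.6 and 61.9 FPKM (log2 fold change -0.60, SE 0.23, adjusted p = 0.135). For these 4 genes all Gli2CA tumors lay below all NTC tumors. Erap1 overlaps Cast, at a mean of 91.7 FPKM, by 834 bases on the opposite strand. Tapbp overlaps Zbtb22, at a mean of 14 FPKM, by 3422 bases on the same strand. How reads in these stretches were assigned was not given in the sources used here. The chaperones Calr, Canx and Pdia3, which fold many glycoproteins beside class I, overlapped between the groups at log2 fold changes of -0.10 (SE 0.27), -0.05 (SE 0.24) and 0.17 (SE 0.26). Their values depended on the scaling. With quantile scaling Calr was at -0.63 and Pdia3 at -0.42, both lower in every Gli2CA tumor, so the split from TAP and tapasin does not hold there for these chaperones. Calr was at 0.06 with sample weights, and Canx at 0.08 with the gene length trend removed.

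The immunoproteasome genes overlapped between the groups in the FPKM as deposited, with the exception of Psmb10. Psmb8, Psmb9 and Psmb10 encode the inducible catalytic subunits that take the place of the constitutive subunits Psmb5, Psmb6 and Psmb7 when interferon-gamma is present. Psmb8 stood at 166, 193 and 264 FPKM (NTC) against 187, 229 and 201 FPKM (Gli2CA) (log2 fold change 0.01, SE 0.25). Psmb9 stood at 127, 185 and 270.2 FPKM against 182, 251 and 199 FPKM (log2 fold change 0.17, SE 0.30). For both genes the NTC tumors spanned the whole Gli2CA range. Psmb10 stood at 227, 256 and 351 FPKM against 216, 227 and 218 FPKM (log2 fold change -0.31, SE 0.24, adjusted p = 0.416), with the highest Gli2CA tumor and the lowest NTC tumor equal once rounded, and without NTC replicate 3 it was at -0.13. The activator genes Psme1 and Psme2, whose products open the proteasome, had log2 fold changes of 0.04 (SE 0.26) and 0.54 (SE 0.32, adjusted p = 0.299). For Psme2 the NTC tumors had 405, 556 and 777 FPKM and the Gli2CA tumors 656, 1054 and 773, which overlap, and 28.3% of its 50-base windows occur in Psme2b. The ratio of Psme2 to Psme1, not tested, was higher in every Gli2CA tumor, at 1.48, 1.69 and 1.68 against 1.96, 2.94 and 2.05. With the gene length trend removed Psme2 was at 0.05, Psmb9 at 0.05 and Psmb8 at -0.07. Psme1 was then at -0.30 and Psmb10 at -0.67, both lower in every Gli2CA tumor. Psmb8, Psmb9 and Psme1 turned to -0.20, -0.03 and -0.16 with protein-coding genes rescaled.

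Relative to the constitutive subunits, all 3 inducible subunits stood lower in the Gli2CA tumors. The ratio of Psmb8 to Psmb5 was 2.05, 1.69 and 2.10 in NTC and 1.43, 1.51 and 1.28 in Gli2CA. The ratio of Psmb9 to Psmb6 was 0.974, 0.881 and 1.21 against 0.772, 0.750 and 0.638. The ratio of Psmb10 to Psmb7 was 6.60, 5.29 and 6.89 against 3.79, 5.17 and 2.73. None of the 3 ratios overlapped between groups, with differences of -0.46, -0.50 and -0.72 on the log2 scale. The exact permutation test over samples, two-sided, gave p = 0.10 for each, the smallest that 3 against 3 allows, and 0.10 after Benjamini-Hochberg adjustment over the 3. The denominators stood higher in every Gli2CA tumor for 2 of the 3 pairs, as Psmb5 stood at 81.0, 115 and 126 FPKM against 130.4, 152 and 157 FPKM and Psmb6 at 130.0, 210.1 and 223 FPKM against 236, 335 and 312 FPKM. With the gene length trend removed, the differences were -0.14 for Psmb8 and -0.24 for Psmb9, with overlapping groups, and -1.23 for Psmb10.

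Tap1 and Psmb9, which share a promoter region, had different estimates. The ratio of Tap1 to Psmb9 was 1.37, 0.827 and 0.762 in NTC and 0.709, 0.407 and 0.495 in Gli2CA. The neighbouring pair, Tap2 over Psmb8, had ratios of 0.685, 0.419 and 0.382 against 0.299, 0.181 and 0.173. In both pairs every Gli2CA tumor lay below every NTC tumor. Both pairs were picked with their values known and were not tested. With the gene length trend removed, the log2 fold changes were -0.48 for Tap1, 0.05 for Psmb9, -1.17 for Tap2 and -0.07 for Psmb8. The annotations of Tap1 and Psmb9 overlap by 212 bases on opposite strands, and reads there cannot be told apart without strand.

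**Figure D3:**
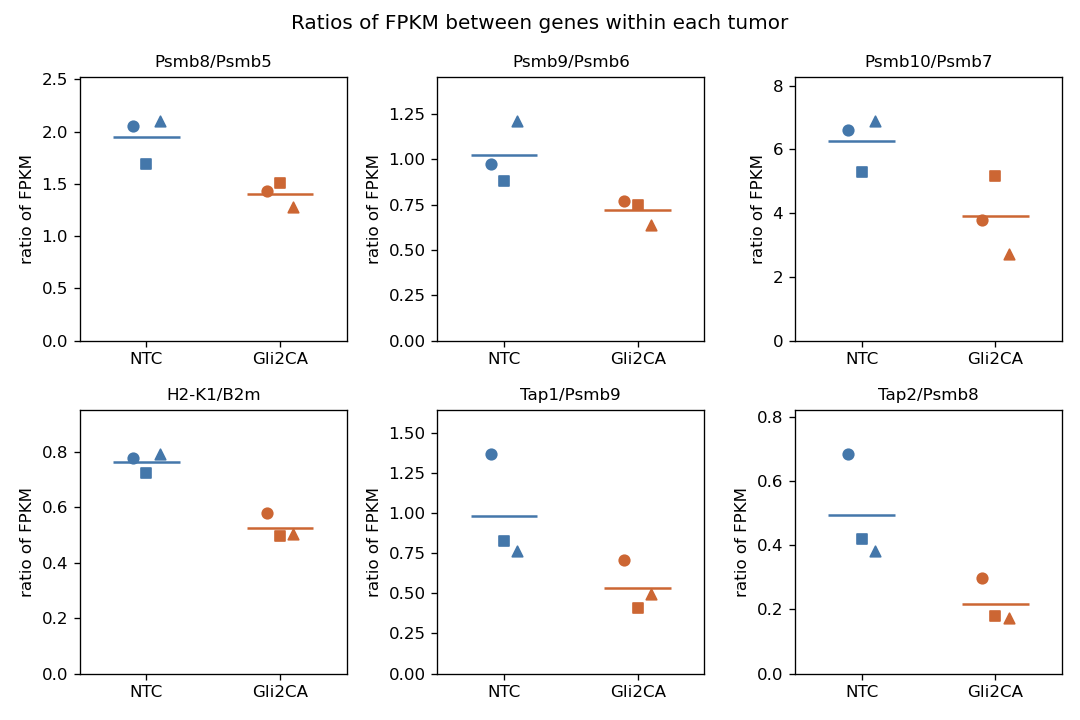
Each point is the ratio of FPKM of 2 genes within 1 tumor, on linear axes that start at 0, by group, with shapes for replicates 1 (circle), 2 (square) and 3 (triangle) and a line at the mean of 3. The first replicates of Psmb8 to Psmb5 are at 2.05 against 1.43. In the 6 ratios shown all Gli2CA points lie below all NTC points. The ratios of Psme2 to Psme1 and of H2-D1 to B2m are left out.

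The interferon-inducible GTPases had the lowest median of the 5 groups, at -0.78, and all 8 estimates were negative. Irgm1, an immunity-related GTPase that regulates autophagy and protects cells from other GTPases of its family, stood at 243, 180.2 and 278 FPKM (NTC) against 123, 103 and 107 FPKM (Gli2CA) (log2 fold change -1.05, SE 0.24, adjusted p = 0.0687). Igtp, or Irgm3, a lipid droplet and membrane GTPase of the same family, stood at 298, 233 and 353 FPKM against 176, 143 and 151 FPKM (log2 fold change -0.90, SE 0.24, adjusted p = 0.0827). In both genes the lowest NTC tumor was above the highest Gli2CA tumor. Igtp overlaps Irgm2 by 7974 bases on the same strand and shares 11.8% of its 50-base windows with it, so the split of reads between them is uncertain.

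The guanylate-binding proteins coat vacuoles and membranes of intracellular pathogens. Gbp5, which also promotes inflammasome assembly, stood at 43.1, 25.2 and 47.6 FPKM against 24.2, 12 and 17.3 FPKM (log2 fold change -1.09, SE 0.33, adjusted p = 0.0941). Gbp2 stood at 826, 470.1 and 938 FPKM against 451, 332 and 377 FPKM (log2 fold change -0.89, SE 0.31, adjusted p = 0.118), and Gbp3 at 246, 235 and 338 FPKM against 163, 175 and 169 FPKM (log2 fold change -0.67, SE 0.23, adjusted p = 0.116). These 3 genes were apart between the groups, though for Gbp2 and Gbp5 NTC replicate 2 came within reach of Gli2CA replicate 1. Gbp4, Gbp7 and Iigp1 overlapped at log2 fold changes of -0.35 (SE 0.31), -0.09 (SE 0.23) and -0.17 (SE 0.29). For Iigp1, a GTPase that attacks parasite vacuoles, the NTC tumors had 369, 395 and 628 FPKM and the Gli2CA tumors 318, 468 and 433. Without NTC replicate 3, Gbp4 was at -0.05. With the gene length trend removed Gbp7 was at 0.29 and Iigp1 at 0.04. With protein-coding genes rescaled both Gbp7 and Iigp1 were lower in every Gli2CA tumor, as was Iigp1 with quantile scaling. Gbp4 overlaps Gbp8 by 23774 bases and Gbp9 by 23773 bases on the same strand, so the split of reads among these genes is uncertain. Gbp2, Gbp3, Gbp5 and Gbp7 are neighbours on chromosome 3, and Gbp3 and Gbp7 share some windows, 3.75% of those of Gbp3.

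The 12 members with an ISRE core in the promoter window had log2 fold changes from -1.09 to 0.06, and 8 of them were lower without overlap, against 17.9% of all tested genes. The 16 members with a promoter but no exact match to the ISRE core ran from -1.20 to 0.54. Of these, 9 were lower without overlap, H2-K1, H2-Q6 and Tapbp among them. The 6 members with a GAS core ran from -1.09 to 0.25, and 3 of them were lower without overlap. The 22 members with a promoter but no exact match to the GAS core ran from -1.20 to 0.54, and 14 were lower without overlap. The lack of an exact match does not show that a promoter lacks the element.

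The regulators stood close together. Nlrc5, the transactivator of class I genes, stood at 35.0, 33.1 and 30.5 FPKM (NTC) against 26.7, 27.9 and 20.5 FPKM (Gli2CA) (log2 fold change -0.40, SE 0.21, adjusted p = 0.257). Irf1, the transcription factor that relays the interferon-gamma signal, stood at 241, 240.3 and 367 FPKM against 212, 233 and 179 FPKM (log2 fold change -0.42, SE 0.26, adjusted p = 0.308). Both were lower in every Gli2CA tumor by a small gap, and without NTC replicate 3 Irf1 was at -0.22. Socs1, the feedback inhibitor of JAK kinases, overlapped at 21.5, 14.9 and 35.9 FPKM against 21.1, 18.4 and 13.1 FPKM.

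Other genes of the pathway gave 0 calls at an adjusted p of 0.05 in any of 7 lists, where 0.348% of all tested genes were called in limma. Of 14 genes of interferon-gamma receptor and signalling, 5 were lower and 0 higher at an unadjusted p under 0.05, against 14.7% and 12.8% of all tested genes. They were Ciita, the class II transactivator, at -1.18 (SE 0.28, adjusted p = 0.0716), Ptpn1, a phosphatase of JAK kinases, at -0.91 (SE 0.22), Irf2 at -0.85 (SE 0.23), Irf8 at -0.74 (SE 0.23) and Jak1 at -0.74 (SE 0.27). Ifng itself stood at 14.0, 8.83 and 31.2 FPKM (NTC) against 10.1, 11.7 and 5.87 FPKM (Gli2CA), from 94 to 439 fragments, and the groups overlapped (log2 fold change -0.79, SE 0.44, adjusted p = 0.268). The receptor genes Ifngr1 and Ifngr2 had log2 fold changes of -0.12 (SE 0.21) and -0.26 (SE 0.21).

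Of 14 other interferon-inducible GTPases, 4 were lower and 0 higher at an unadjusted p under 0.05, the level for every count in these lists, where 14.7% of all tested genes were lower and 12.8% higher. They were Irgm2 at -0.95 (SE 0.21), Gbp10 at -1.42 (SE 0.36), Gbp6 at -0.80 (SE 0.26) and Gbp9 at -0.60 (SE 0.22). Of 12 other genes induced by interferon-gamma, 5 were lower and 0 higher, with Icam1, an adhesion molecule, at -1.30 (SE 0.26, adjusted p = 0.0632), Wars, a tRNA synthetase, at -1.21 (SE 0.28), Parp14 at -0.80 (SE 0.23), Cd274, which encodes PD-L1, at -0.74 (SE 0.30) and the chemokine gene Cxcl9 at -0.86 (SE 0.37); the groups overlapped for Cd274 and Cxcl9. Of 10 tested of 15 other class I and class I-like chains, 3 were lower, Fcgrt at -0.90 (SE 0.20), H2-M2 at -1.74 (SE 0.43) and Mr1 at -0.59 (SE 0.22). Of 9 class I promoter factors, 3 were lower, Rfx5 at -0.99 (SE 0.27), Rela at -0.80 (SE 0.28) and Nfyc at -0.62 (SE 0.24).

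Of 17 constitutive proteasome genes, 7 were higher and 0 lower at an unadjusted p under 0.05, against 12.8% higher and 14.7% lower of all tested genes, with the alpha-ring genes Psma7 at 1.15 (SE 0.34), Psma3 at 1.09 (SE 0.32), Psma6 at 0.98 (SE 0.33) and Psma5 at 0.82 (SE 0.28). Of 15 genes of peptide supply and folding, 3 were lower at that level, Tapbpl, Uggt1 and Ganab, and 2 were higher, the translocon genes Sec61g at 1.63 (SE 0.48) and Sec61b at 1.10 (SE 0.34). Both of these last counts are near the shares over all tested genes and are no result about the list. The proteasome genes Psma7, Psma3, Psma6 and Psma5 have mean transcript lengths of 836, 1055, 816 and 813 bases. Short genes tended to be higher in the tumors labelled Gli2CA, and the shares given are over genes of all lengths. The part of gene length in the count of 7 was not tested.

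**Figure D4:**
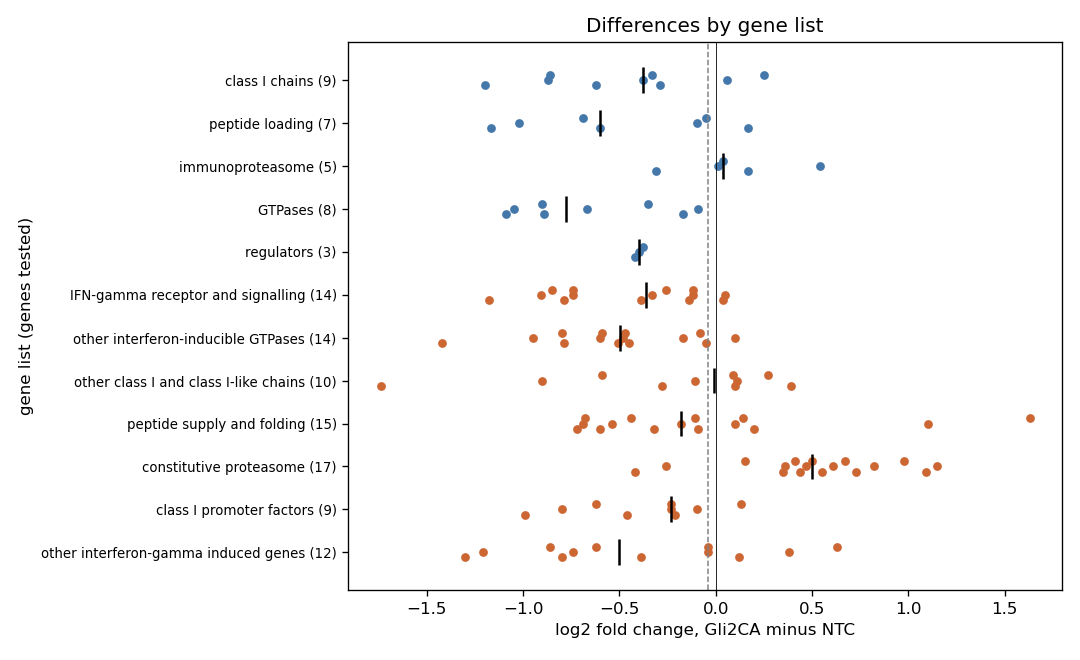
Points are log2 fold changes of single genes, Gli2CA against NTC, by list, blue for the 32 members and orange for other genes of the pathway; black bars are list medians and the dashed line is the median of all tested genes at -0.04. The GTPases have a median of -0.78 and the constitutive proteasome genes one of 0.50. All values are from the FPKM as deposited, with the gene length trend left in.

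Short genes tended to be higher in the tumors labelled Gli2CA. The median log2 fold change was 0.38 in the 3955 tested genes with the shortest mean transcript length, up to 1024 bases, and -0.34 in the 3954 longest. The corresponding medians of the members were -0.32 for the 6 among the shortest genes and -0.40 for the 5 among the longest. With the trend removed H2-K1 was at -1.04, H2-D1 at -0.87, B2m at -0.62, Tapbp at -1.14 and Tap2 at -1.17, while Gbp5 was at -0.79, Irgm1 at -0.79 and Nlrc5 at -0.13. What part the length trend has in the results was otherwise not tested.

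**Figure D5:**
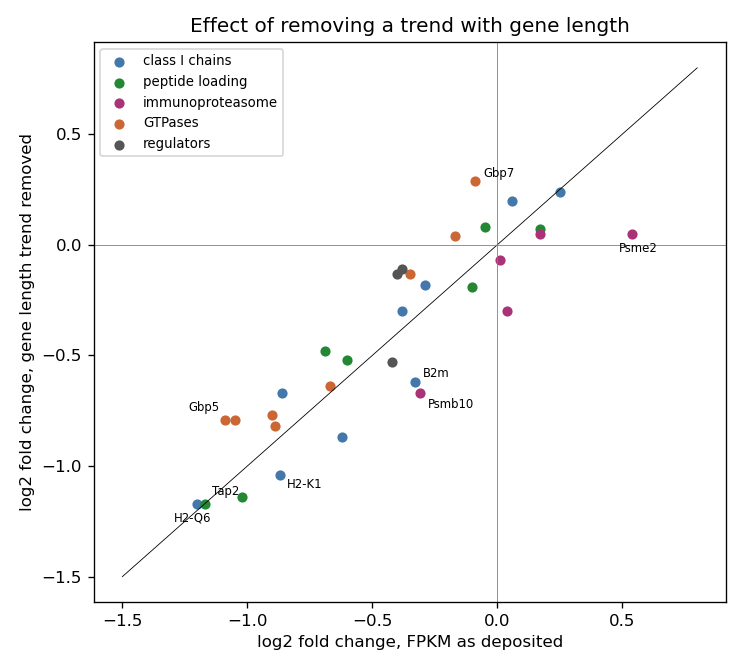
Each point is 1 of the 32 genes, with the log2 fold change on FPKM as deposited on the horizontal axis and after removing a trend with gene length in each library on the vertical axis; the diagonal marks equality. B2m moves from -0.33 to -0.62 and Psmb10 from -0.31 to -0.67, while Gbp7 moves from -0.09 to 0.29.

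In the lists of cell type markers 0 genes passed an adjusted p of 0.05 in limma. Of 14 T and NK cell markers, 8 were lower in every Gli2CA tumor without overlap, where 17.9% of all tested genes were lower and 15.9% higher in that way. Their summed level overlapped between the groups, at 327 to 579.6 FPKM in NTC and 203 to 396 FPKM in Gli2CA. Cd3e stood at 25, 21.4 and 32.9 FPKM against 14.1, 10.2 and 7.41 FPKM (log2 fold change -1.31, SE 0.28, adjusted p = 0.0664) and Cd8a at 31.1, 26.2 and 41.2 FPKM against 22.5, 20.3 and 16.1 FPKM. Other markers of these cells overlapped, as Cd3d, of the same receptor complex as Cd3e, stood at 43.1, 51.3 and 103 FPKM against 63.4, 163 and 43.5 FPKM (log2 fold change 0.33, SE 0.49), and Gzmb and Ncr1 were at log2 fold changes of 0.11 (SE 0.31) and 0.03 (SE 0.33). Of 9 macrophage markers 5 were lower without overlap, with overlapping sums of 4003 to 5853 and 3104 to 4333 FPKM, of 6 type 1 dendritic cell markers 3, with sums of 58.2 to 84.9 and 35.8 to 52.3 FPKM, and of 5 endothelial markers 3, with sums of 82.6 to 138 and 57.4 to 67.1 FPKM. Of 5 general leukocyte markers 2 were lower without overlap, with sums of 1224 to 1891 and 931 to 1205 FPKM, while Ptprc, which encodes CD45, overlapped at 70.4, 71.5 and 101 FPKM against 78.5, 88.7 and 88.2 FPKM. NTC replicate 3, with the highest value of 24 members, also had the highest sums of T and NK cell (579.6), leukocyte (1891), macrophage (5853), type 1 dendritic cell (84.9) and skeletal muscle markers (606 FPKM, against 0.16 and 0.474 in the other NTC tumors). Of 5 tested neutrophil markers, 2 were higher and 1 lower without overlap, with sums of 12.8 to 39.1 FPKM in NTC and 40.5 to 45.3 FPKM in Gli2CA. Of 5 fibroblast markers 2 were lower without overlap and the others overlapped, with sums of 7696 to 23462 and 4165 to 7075 FPKM. In those sums Col1a1 alone stood at 13018, 3263 and 3467 FPKM against 2242, 1298 and 977 FPKM. Summed keratinocyte markers were at 3.83 to 5.83 and 23.1 to 36.6 FPKM, and melanocytic markers at 95.9 to 186 and 58.9 to 104 FPKM. Adipocyte markers were at 0.784 to 34.8 and 1.52 to 35.0 FPKM, and skeletal muscle markers at 0.16 to 606 and 2.70 to 349.8 FPKM. The part of these cells in the results for class I and interferon-gamma response genes was not tested.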

How the data were processed

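RNA from 6 whole tumors was sequenced as poly-A selected libraries, per the labels' protocols. The authors deposited FPKM values for 54532 genes, and their aligner, counter, build, annotation and handling of strand were not given in the sources used here. Symbols (54409 genes) and gene models came from GENCODE M21 on GRCm38. Fragments and depths were recovered from FPKM times mean transcript length, which fell on whole fragments, within 0.1, for at least 97.03% of low values from genes with several transcripts. No pair of libraries agreed within sampling noise (lowest mean chi-square per gene 48.9).

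The test was limma 3.58.1 in R 4.3.3 (lmFit, eBayes with a variance trend) on log2(FPKM + 0.5), two-sided, on 15820 genes whose mean FPKM reached 0.5, Benjamini-Hochberg adjusted, with calls at 0.05. On that scale, changes of low genes are understated. Every adjusted p is from limma. It was tested on simulated data. The members and lists were chosen with earlier results of these data known. All members could be named, and of each other list up to 4 genes with the smallest p, plus Ifng, Psmb5, Psmb6, Psmb7, Cd3e, Cd8a, Ptprc, Csf1r, Gli2 and a gene not reported here; Ifngr1, Ifngr2, Jak1, Cxcl9, Ganab, Cd3d, Gzmb, Ncr1 and the melanocytic markers were named after their values were seen. Alternatives were other pseudocounts (0.1 and 1), other filters (none, or mean FPKM 1), scaling by median ratios or quantiles, weighted samples, protein-coding genes rescaled, no variance trend, a gene length trend removed, a replicate block and each sample left out, and, added after seeing the data, limma-voom. Python 3.11.15, numpy 2.4.6, pandas 2.3.3, scipy 1.17.1 and matplotlib 3.10.9 were used.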

Additional observations from a re-analysis of the deposited data

How the results depend on the processing

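The number of genes called, 55 with all libraries, was 145 with a filter at a mean FPKM of 1, 3 with no filter, 32 with median-ratio scaling, 36 with quantile scaling, 1588 with sample weights, 736 with protein-coding genes rescaled, 106 with limma-voom and 4 to 97 without 1 library. The fit with protein-coding genes rescaled covered these genes alone, so its count is over a smaller set. Its median log2 fold change over genes was -0.29, beside -0.04 in the main fit. The number of members called, 0 with all libraries and in each fit without 1 library, was 6 with sample weights and 6 with protein-coding genes rescaled, in both cases H2-Q4, H2-Q6, Tap2, Tapbp, Irgm1 and Igtp, all lower. With a replicate block 1928 genes and 6 members were called (H2-Q6, Tap2, Tapbp, Gbp5, Irgm1 and Igtp). Same-numbered tumors had correlations of deviations from the group means of 0.353, 0.221 and 0.024, against -0.285 to 0.078 for different numbers. Of the 3 Gli2CA tumors, 2 correlated best with their own number. These values cannot tell whether the numbers mark pairs. The cause of these differences was not tested. The members lower at an unadjusted p under 0.05, 12 with all libraries, numbered 7 to 12 without 1 library, with 7 without NTC replicate 3. For the fits without 1 library no share of all tested genes is given at that level. The members lower without overlap, 19, numbered 12 with median-ratio scaling and 19 to 20 without 1 library, where the share over all tested genes was not computed. The class I chains' median of -0.38 was -0.58 with quantile scaling, -0.58 with protein-coding genes rescaled, -0.62 with the gene length trend removed and -0.49 to -0.24 without 1 library. The peptide loading median of -0.60 was -0.80 with protein-coding genes rescaled and -0.67 to -0.43 without 1 library, with -0.43 without Gli2CA replicate 2. The log2 ratio differences with the gene length trend removed were -0.14 for Psmb8 to Psmb5, -0.24 for Psmb9 to Psmb6 and -1.23 for Psmb10 to Psmb7; without 1 library they were -0.56 to -0.40, -0.60 to -0.37 and -0.95 to -0.49.

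Of the 32 members, 23 kept their direction in all 18 alternatives, 21 of them lower. The direction turned in genes near 0. With quantile scaling H2-T22 was at -0.13, Pdia3 at -0.42, Psmb8 at -0.16 and Psme1 at -0.15. With protein-coding genes rescaled H2-T22 was at -0.14, Pdia3 at -0.04, Psmb8 at -0.20, Psmb9 at -0.03 and Psme1 at -0.16. With sample weights Calr was at 0.06, Canx at 0.06 and Psmb8 at -0.07. With the gene length trend removed Canx was at 0.08, Psmb8 at -0.07, Psme1 at -0.30, Gbp7 at 0.29 and Iigp1 at 0.04. Canx was at 0.00 with median-ratio scaling and Psmb8 at -0.00 with limma-voom. Without 1 library the ranges were -0.09 to 0.30 for H2-T22, -0.26 to 0.09 for Calr, -0.14 to 0.11 for Canx, -0.14 to 0.19 for Psmb8, -0.10 to 0.45 for Psmb9, -0.13 to 0.25 for Psme1, -0.22 to 0.09 for Gbp7 and -0.31 to 0.07 for Iigp1. Every member had at least 604 fragments in each library.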
